A study of Mus musculus with 16 samples.

Results

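Nr4a1, Nr4a3, Egr1, Irf4, Myc, Nfkbid and Tnfrsf9 are 7 genes whose transcripts appear soon after a T cell receptor (TCR) is engaged. They were taken by name from the 9428 genes of the lymph node count table, and all 7 had a row in it. The cells were sorted CD8+CD44+ T cells. CD44 is used as a marker of antigen-experienced CD8 T cells, but whether each cell had met antigen was not measured. The cells came from C57BL/6 mice aged 16 weeks with melanoma-associated vitiligo (MAV), in which immunity to melanoma also destroys normal pigment cells. Draining lymph node and skin were taken 45 days after the tumor was removed by surgery. The 16 samples are 4 libraries (RNA and TCR of each tissue), each run on 4 lanes that share their cells, and expression was analysed in the lymph node library alone. Every cell came from mice with MAV, with no untreated or tumor-free group, and how many mice were pooled is not stated in the sources used here. With 1 library no difference has a replicate check: no p-value is given, and all intervals are exact 95% intervals that cover counting error only.

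When a TCR binds its ligand, kinases open calcium, MAP kinase and NF-κB signalling, and transcription factors already present in the cell switch on a first wave of genes. Nr4a1 (Nur77) and Nr4a3 (Nor1) are orphan nuclear receptors, Egr1 is a zinc-finger factor induced through MAP kinase, Irf4 is a transcription factor whose level follows the strength of the TCR signal, and Myc drives growth and metabolism. Nfkbid encodes IκBNS, a nuclear regulator of NF-κB, and Tnfrsf9 encodes the costimulatory receptor 4-1BB. In mice these genes, Nr4a1 above all, are widely used as readouts of recent TCR engagement, although cytokines and stress also induce several of them.

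RefSeq promoter windows of 250 bases before to 50 after a start (build GRCm38.p6) were at hand for 5 of the 7 genes, with 1 window each for Nr4a1, Nr4a3 and Irf4, 3 for Nfkbid and 2 for Tnfrsf9. They were searched on both strands for a CRE (TGACGTCA), an AP-1 site (TGANTCA), an EGR site (GCGNGGGCG), an NFAT core (GGAAA), an E-box (CACGTG), a κB site and a CArG box. The 3 windows with a match other than the NFAT core, which 61.3% of 32851 promoters hold, are printed because they show the letters through which these pathways are known to act. Capitals mark the matches, and all 3 windows are on the plus strand, given 5′ to 3′.
Nr4a1, chr15:101266596-101266895: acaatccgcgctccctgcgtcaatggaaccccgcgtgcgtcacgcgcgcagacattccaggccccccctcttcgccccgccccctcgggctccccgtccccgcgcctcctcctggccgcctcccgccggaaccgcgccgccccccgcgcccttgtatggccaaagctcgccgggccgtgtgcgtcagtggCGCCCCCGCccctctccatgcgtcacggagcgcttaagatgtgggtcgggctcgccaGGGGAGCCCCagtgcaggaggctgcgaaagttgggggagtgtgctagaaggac
Nfkbid, chr7:30422156-30422455: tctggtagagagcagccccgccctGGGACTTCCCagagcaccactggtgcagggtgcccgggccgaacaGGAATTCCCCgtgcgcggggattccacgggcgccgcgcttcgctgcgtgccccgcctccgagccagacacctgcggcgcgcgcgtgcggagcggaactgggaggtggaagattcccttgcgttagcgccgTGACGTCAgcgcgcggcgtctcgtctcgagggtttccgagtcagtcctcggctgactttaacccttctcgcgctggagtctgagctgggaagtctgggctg
Tnfrsf9, chr4:150927749-150928048: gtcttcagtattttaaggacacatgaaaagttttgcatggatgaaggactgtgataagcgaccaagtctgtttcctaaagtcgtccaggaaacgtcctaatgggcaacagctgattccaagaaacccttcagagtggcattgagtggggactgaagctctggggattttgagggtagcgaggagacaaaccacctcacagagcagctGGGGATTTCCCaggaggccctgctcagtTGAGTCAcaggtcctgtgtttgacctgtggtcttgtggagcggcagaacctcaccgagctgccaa
The Nr4a1 window held an EGR match, on the minus strand, and a κB match. The Nfkbid window held 2 κB matches and a CRE, and the Tnfrsf9 window held 2 overlapping κB matches, which also overlap an NFAT core, and an AP-1 match. A κB match was present in 4.51% of all promoter windows, an AP-1 match in 7.81%, an EGR match in 5.55% and a CRE in 1.79%. The Irf4 window had an NFAT core alone, and the Nr4a3 window had none of these letters. A match is a description of letters and not evidence of binding.

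The lymph node table held 3266 cells and 14556622 unique molecular identifiers (UMIs), and the median cell had 4423. Transcripts of the sort genes were present: Cd3e had a UMI in 3112 cells, Cd8b1 in 3155 and Cd44 in 849, while Cd4 had no row. Of 13 B cell markers 7 had a row, with Ighm seen in 1555 cells, Cd79b in 342 and Cd74 in 159, and the defining markers Cd79a, Ms4a1 and Pax5 had none. Of 13 myeloid markers 4 had a row, with Cst3 in 976 cells and Lyz2 in 23. None of the 6 dendritic cell, 3 NK cell, 6 γδ T cell and 4 melanocyte markers looked up had a row. Killer cell receptor genes such as Klra7, Klre1 and Klrc1, which were not on these lists, did have rows. A missing row does not show that a cell type was absent. At least 2 TRB sequences were found for 315 of the cells, which marks possible doublets, and 12 barcodes were shared between the lymph node and skin receptor tables.

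Myc was the only gene of the set seen in a large part of the cells, and the other 6 were rare. Myc (chromosome 15, 61985391 to 61990374) had at least 1 UMI in 1088 of 3266 cells, or 33.3% (31.7 to 35), with 1690 UMIs in all. Nfkbid (chromosome 7, 30421732 to 30428746) was seen in 283 cells, or 8.67%. It was followed by Egr1 (chromosome 18, 34859823 to 34864984) in 117 cells, or 3.58% (2.97 to 4.28). Tnfrsf9 (chromosome 4, 150914562 to 150946102) was seen in 106 cells, or 3.25% (2.66 to 3.91). The 2 nuclear receptors were rarer: Nr4a3 (chromosome 4, 48045153 to 48086447) was seen in 79 cells, or 2.42% (1.92 to 3.01), and Nr4a1 (chromosome 15, 101254269 to 101274795) in 42 cells, or 1.29% (0.928 to 1.73). Irf4 (chromosome 13, 30749226 to 30766976) was seen in 55 cells, or 1.68% (1.27 to 2.19). Positions are those of GENCODE M21 on mm10. The intervals of Egr1 and Tnfrsf9, of Tnfrsf9 and Nr4a3, of Nr4a3 and Irf4, and of Irf4 and Nr4a1 overlapped, so the order within these pairs of neighbours is not resolved, whereas Myc and Nfkbid each stood clear of the rest. No cell type that should lack these genes was sorted, so the share that free RNA alone would give was not measured.

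Most positive cells held a single UMI: 65.4% of cells with Myc, 75.2% of cells with Egr1 and 91.9% of cells with Nfkbid. The highest counts in a cell were 14 for Nfkbid, 12 for Myc, 6 for Tnfrsf9, 5 each for Nr4a1, Nr4a3 and Egr1, and 3 for Irf4. Detection also followed depth. From the shallowest of 4 groups of equal size (461 to 3173 UMIs) to the deepest (5470 to 12576 UMIs), the share with Myc went 16.8, 31.4, 37.3 and 47.8%. Nfkbid had 5.14, 7.84, 10.5 and 11.2% over the same groups, and Tnfrsf9 1.84, 2.57, 3.06 and 5.51%. Irf4 did not climb with depth, at 1.96, 1.84, 1.22 and 1.72%, and its counts per 1000000 UMIs (CPM) were highest in the shallowest group (9.29, 5.08, 2.99 and 3.53 CPM). Egr1 was likewise highest in CPM in the shallowest group (16.8, 12.1, 13.0 and 7.23 CPM). Shares were therefore compared after every cell was thinned at random to 2000 UMIs, which left 2929 cells and left out 337 shallower ones. At that depth Myc was seen in 18.9% of cells, Nfkbid in 3.96%, Egr1 in 1.91%, Tnfrsf9 in 1.57%, Nr4a3 in 1.30%, Nr4a1 in 0.751% and Irf4 in 0.580%. Nr4a1 and Irf4 exchanged places relative to the unthinned order, within overlapping intervals.

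**Figure D1:**
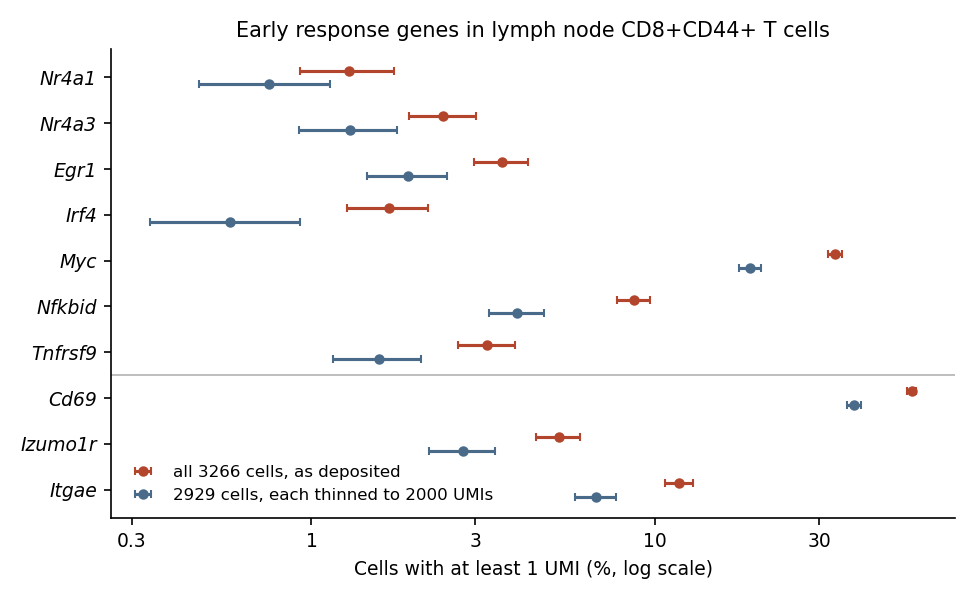
Share of cells with at least 1 UMI of each early response gene and of Cd69, Izumo1r and Itgae (log scale, %), in all 3266 cells (red) and in 2929 cells thinned to 2000 UMIs each (blue), with exact 95% intervals. Myc lies at 33.3 and 18.9%, while the other 6 early response genes lie between 1.29 and 8.67% in all cells.

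Cells with 3 or more of the 7 genes were more frequent than independent detection gives, while for cells with 2 or more no excess was detectable. After thinning, 767 cells (26.2%) had at least 1 of the genes, against 783 expected from the product of the genes' own shares. At least 2 were seen in 69 cells, against 62.4 expected (ratio 1.11, 0.860 to 1.40), and at least 3 in 8 cells, against 2.22 expected (ratio 3.61, 1.56 to 7.10). In the unthinned cells, with the expectation taken within 10 equal groups by depth, at least 3 were seen in 36 cells against 22.3 (ratio 1.62, 1.13 to 2.24). At least 4 were seen in 9 cells against 1.09 (ratio 8.28, 3.79 to 15.7). Of these 9 cells, 2 had 5 of the genes, 2 had 6 and none had all 7. Without Myc the excess began at 2 genes: 21 thinned cells had at least 2 of the other 6, against 10.9 expected (ratio 1.93, 1.20 to 2.95). In unthinned cells that number was 74 against 53.0 (ratio 1.39, 1.10 to 1.75), and 16 cells had at least 3 against 2.49 (ratio 6.44, 3.68 to 10.5).

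Taken in pairs, the 6 genes other than Myc were found together more often than independent detection gives, while no pair with Myc had an interval that excluded 1. Over the 15 pairs without Myc, the cells with both genes summed to 129, against 58.2 expected within depth groups (ratio 2.22). All 15 ratios were above 1, and 9 of them had an interval above 1. Over the 6 pairs with Myc the sum was 266 against 249 (ratio 1.07). The highest ratio was that of the 2 nuclear receptors: Nr4a1 and Nr4a3 shared 6 cells against 1.09 expected (ratio 5.52, 2.02 to 12), which is 14.3% of the cells with Nr4a1 and 7.59% of those with Nr4a3. Nr4a1 and Egr1 shared 8 cells against 1.84 (ratio 4.35, 1.88 to 8.58), and Nr4a1 and Tnfrsf9 shared 7 against 1.71 (ratio 4.09, 1.64 to 8.42). Irf4 and Nfkbid shared 14 cells against 4.68 (ratio 2.99, 1.64 to 5.02), or 25.5% of the cells with Irf4. The lowest ratio without Myc was that of Nr4a3 and Nfkbid, with 9 cells against 7.71 (ratio 1.17, 0.534 to 2.22). Nr4a3 and Egr1 shared 6 unthinned cells against 2.93 but no thinned cell. With Myc, the ratio ran between 1.34 for Nr4a1 (0.827 to 2.04) and 0.788 for Irf4 (0.431 to 1.32).

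For comparison, the ratio of each of the 7 genes was taken with 6925 other genes, those seen in at least 2% of thinned cells. The medians were at most 1.05. The 95th percentile over those genes was 1.81 for Nr4a1, 1.84 for Irf4, 1.29 for Nfkbid and 1.12 for Myc. Of the 6 genes without Myc, all but Nfkbid were seen in under 2% of thinned cells. This background is therefore one of more abundant partners and is not matched to most of the pairs above. The excess among the 6 genes without Myc was 2.28 without barcodes that had 2 or more TRB sequences, 1.89 without cluster 6 of the clustering and 2.11 when the expectation was taken within clusters and the 4 depth groups. Without the 9 cells that had at least 4 of the genes it was 1.55 (79 cells against 51.1), with 12 of 15 pairs above 1. For the 6 pairs with Myc the ratio was 1.07 without barcodes that had 2 or more TRB sequences. It was 1.12 without cluster 6, with 5 of 6 pairs above 1, and 1.01 without the 9 cells, with 3 of 6 above 1. These 3 subsets and the stratified expectation were chosen after the data were seen.

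**Figure D2:**
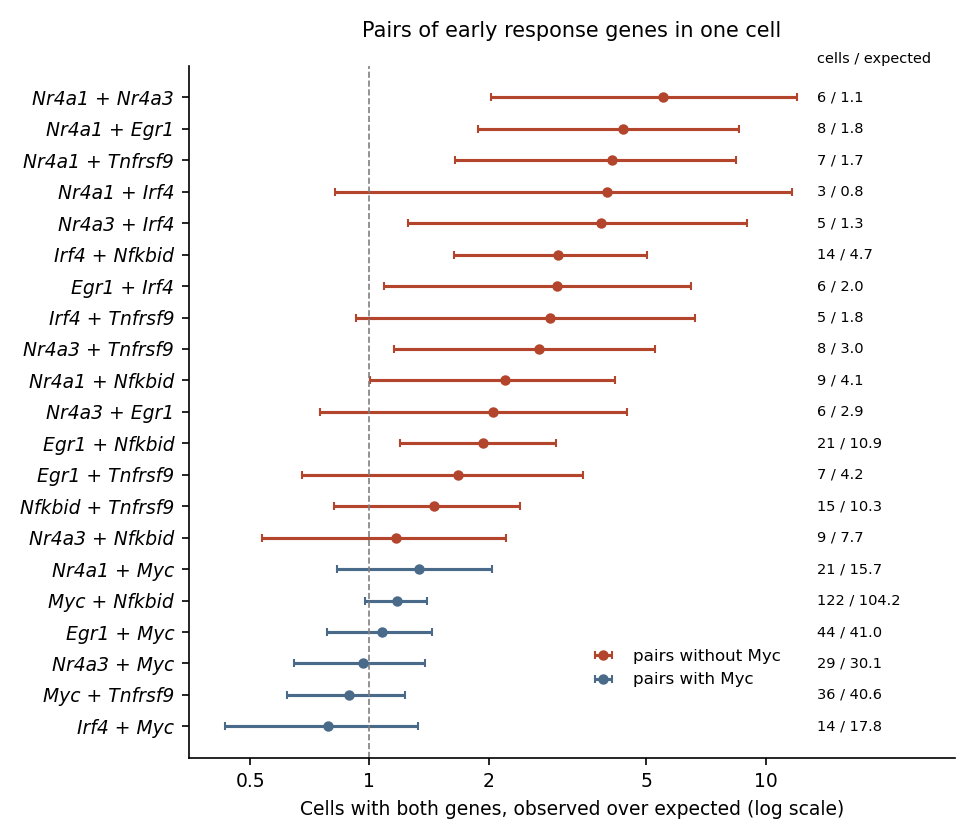
Cells with both genes of a pair over the number expected from independent detection within depth groups, for all 21 pairs, with exact 95% intervals. The 15 pairs without Myc (red) all lie above 1, up to 5.52 for Nr4a1 with Nr4a3, and the 6 pairs with Myc (blue) lie around 1.

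The 9 cells with at least 4 of the genes had a median of 5978 UMIs, against 4784.5 in cells with 1 to 3 and 4055 in cells with none. The deepest of them, with 9523 UMIs and 6 of the genes, held 5 UMIs of Nr4a1, 5 of Nr4a3, 9 of Myc and 14 of Nfkbid, together with 22 of Cd69 and 89 of the chemokine gene Ccl4. It carried at least 2 TRB sequences. The other cell with 6 of the genes had 2948 UMIs and 8 of Cd69. A cell with 5 of the genes held 7 UMIs of Myc, 5 of Tnfrsf9 and 9 of Ccl4 but none of Cd69. The shallowest of the 9, with 2466 UMIs and 4 of the genes, had no UMI of Cd8a, Cd8b1 or Cd3e. It held 5 UMIs of Nrn1 and 3 of Lag3, and whether it was a CD8 T cell was not tested. No receptor contig was found for 2 of the 9, this cell among them. Both held B cell and myeloid markers, and 2279 of the 3266 cells had a UMI of either. At least 2 TRB sequences were present in 3 of the 9 cells (33.3%), against 12.4% of cells with 1 to 3 of the genes and 7.37% of cells with none, and whether doublets contributed was not tested. Cd69 was seen in 7 of the 9 (77.8%), against 63.2% and 49.8% in the other classes, which differ in depth.

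Cd69 encodes a surface protein that appears within hours of TCR engagement and is also kept on resident memory cells. It was more abundant in cells with more of the early response genes. Cd69 itself was seen in 1821 cells (55.8%, or 37.8% after thinning). Its share among thinned cells was 36.1, 41.5, 50.8 and 75.0% in the 2162, 698, 61 and 8 cells with 0, 1, 2 and at least 3 of the 7 genes, and its level was 270, 309, 362 and 1450 CPM. The last level rested on 50 UMIs. In the 69 cells with at least 2 of the genes against the 2162 cells with none, the log2 ratio of Cd69 was 0.81 (0.57 to 1.04, from 158 and 2813 UMIs), and it was 0.63 without the cell that held most. The comparison groups had median depths of 4499 and 4624 UMIs.

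Read the other way, each of the 7 genes had the higher point value in the 1108 thinned cells with Cd69 than in the 1821 without, and the intervals of Egr1 did not overlap. Egr1 was seen in 2.98% (2.06 to 4.16) of cells with Cd69 and 1.26% (0.802 to 1.89) of cells without. Nr4a1 was seen in 1.17% (0.626 to 1.998) and 0.494% (0.226 to 0.936), and Nfkbid in 5.05% and 3.29%. Myc was close in both, at 20.0% (17.7 to 22.5) and 18.2% (16.4 to 20.0). Any of the 6 genes without Myc was seen in 12% (10.1 to 14.1) of cells with Cd69 and in 7.47% (6.30 to 8.77) of cells without. By the number of Cd69 UMIs (0, 1, 2, 3 and at least 4, in 1821, 737, 243, 78 and 50 cells), any of the 6 genes had shares of 7.47, 10.7, 14.4, 12.8 and 18%, the last with an interval of 8.58 to 31.4. Egr1 had 1.26, 2.17, 4.53, 3.85 and 6.00%. Tnfrsf9 did not follow that order, at 1.32, 2.44, 1.23, 1.28 and 0%, the last being 0 of 50 cells.

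Izumo1r encodes folate receptor 4, a surface protein of regulatory and anergic CD4 T cells, and Itgae encodes the integrin chain CD103, which binds E-cadherin in epithelium. Izumo1r was seen in 171 cells (5.24%) and Itgae in 384 (11.8%). Neither had a stable direction in cells with at least 2 of the genes against cells with none. For Izumo1r the log2 ratio was -1.69 (-4.90 to 0.03, from 2 and 224 UMIs), and for Itgae it was -0.66 (-1.91 to 0.31, from 8 and 401 UMIs). With cells thinned to 1000 UMIs the ratios were 0.30 and 1.04, and with another random draw at 2000 UMIs that of Izumo1r was 0.65. Both intervals at 2000 UMIs include 0, so a difference was not detectable at this depth.

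Taken by single gene, cells with Izumo1r or Itgae held less Myc and more Egr1 by point value, and the intervals did not overlap for Myc by Izumo1r status. Myc was seen in 8.64% (3.55 to 17.0) of the 81 cells with Izumo1r and 19.2% (17.7 to 20.7) of the 2848 cells without. It was seen in 13.2% (8.81 to 18.7) of the 197 cells with Itgae and 19.3% (17.8 to 20.8) of the 2732 cells without. Egr1 was seen in 4.94% (1.36 to 12.2) of cells with Izumo1r and 1.83% (1.37 to 2.39) of cells without, and in 4.06% (1.77 to 7.84) and 1.76% by Itgae status. Irf4 was seen in 2.03% (0.556 to 5.12) of cells with Itgae and 0.476% (0.254 to 0.812) of cells without, and Tnfrsf9 in 3.55% (1.44 to 7.18) and 1.43%. Any of the 6 genes without Myc was seen in 14.2% (9.66 to 19.9) of cells with Itgae and 8.82% (7.78 to 9.95) of cells without, but in 8.64% and 9.20% by Izumo1r status. Nr4a3 was seen in none of the 81 cells with Izumo1r, an interval that reaches 4.45%.

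**Figure D3:**
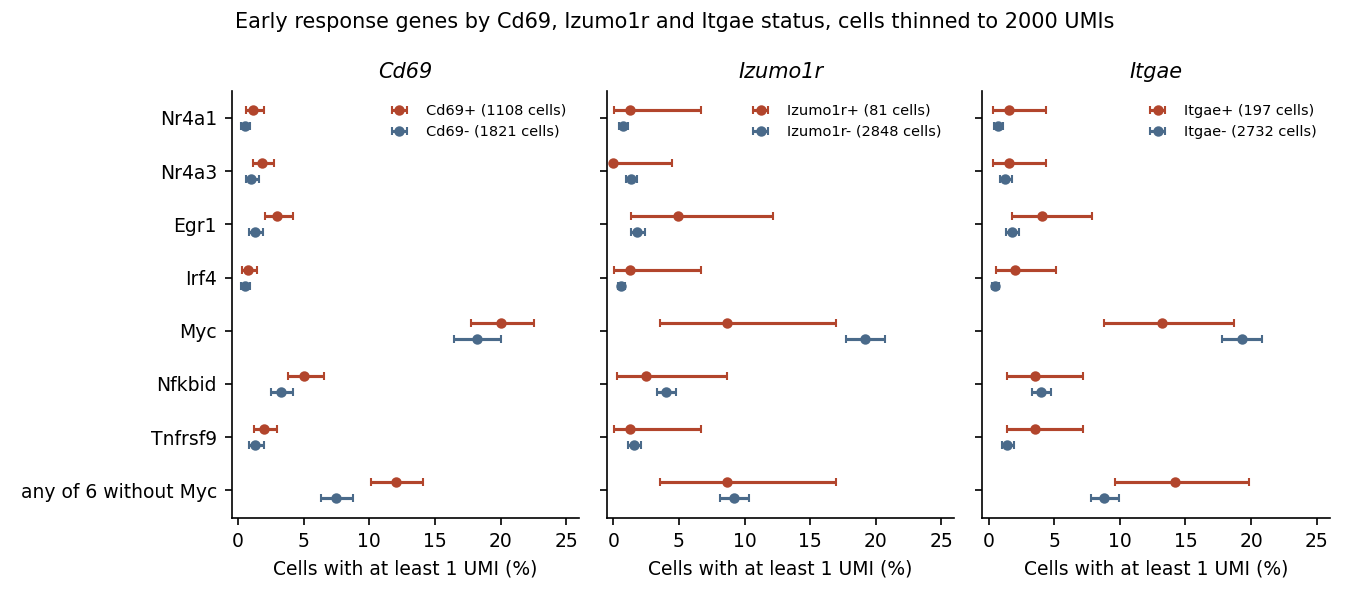
Share of thinned cells with each early response gene (%), in cells with (red) and without (blue) a UMI of Cd69, Izumo1r or Itgae, with exact 95% intervals. Any of the 6 genes without Myc was seen in 12% of cells with Cd69 and 7.47% of cells without, and Myc in 8.64% of cells with Izumo1r and 19.2% of cells without.

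Other transcripts were then compared between the 69 cells with at least 2 of the 7 genes and the 2162 with none, counting a gene as differing when the summed CPM differed by 2-fold or more (a log2 ratio past 1 or -1, with 1 CPM added to both sides). Of 8562 genes with at least 50 UMIs over both groups, 258 (3.01%) were higher by this rule and 580 (6.77%) were lower, and the median of all of them was 0.05. Of these, 131 and 65 had an interval that excluded 0. The higher genes had a median of 8 UMIs in the 69 cells and the lower genes a median of 1. The 69 cells are largely cells with Myc, which 55 of them held (79.7%), followed by Nfkbid in 36, Egr1 in 16, Nr4a3 in 14, Tnfrsf9 in 13, Nr4a1 in 12 and Irf4 in 4.

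Among other genes known to be induced through the TCR, 36 of 43 had a row and 31 enough UMIs: 8 were higher and 1 was lower, with a median log2 ratio of 0.47. Ccl4, a chemokine gene, had a log2 ratio of 3.48, but 89 of its 125 UMIs in the 69 cells came from 1 cell, and it was 1.74 without that cell. Gadd45b, a stress-response gene, had 1.98 (1.10 to 2.98), and Rel, which encodes the NF-κB subunit c-Rel, had 1.46 (0.90 to 2.02, from 31 and 346 UMIs). Xcl1, which encodes a chemokine that draws dendritic cells, had 1.40 (1.07 to 1.74), with 29 of its 83 UMIs from 1 cell and 0.80 without it. Dusp5, an ERK phosphatase gene, had 1.35, the cytokine gene Tnf 1.34 and the anti-apoptotic gene Bcl2a1b 1.31, while Ier3 was lower at -1.12, from 1 and 80 UMIs. Bcl2a1b has near-identical copies among which reads can be split.

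The lists of other functions were read in the same way. None of 9 heat shock genes passed 2-fold (median 0.28, highest Hspa5 at 0.95), 1 of 34 Myc target genes did (median 0.21; Tfrc, the transferrin receptor gene, at 1.33), and none of 32 genes for TCR signalling proteins or of 16 recirculation genes did (medians -0.04 and -0.02). Of 18 other immediate early and AP-1 genes, none was higher and 1 was lower (median 0.02). Of 12 effector genes none was higher and 6 were lower (median -0.74), among them S100a6 at -1.24 (-1.69 to -0.84, from 48 and 3559 UMIs) and S100a4 at -2.0 from 5 and 657 UMIs. Granzyme genes rested on fewer UMIs, with Gzma at 1 against 345 and Gzmb at 2 against 173. The effector median was -0.02 with cells thinned to 1000 UMIs, -0.06 with 3000 UMIs and -0.08 with another random draw. None of the 69 cells lay in cluster 7, the cluster led by S100a4, Lgals3, Gzma and Gzmb. That cluster held only 115 of the 2929 thinned cells, so few of the 69 would be expected there. Of 13 cell cycle genes 4 were higher (median 0.69), led by Stmn1, the stathmin gene, at 2.40, with 16 of its 33 UMIs in 1 cell. That list's direction was not stable: its median was -0.11 with another random draw of the thinning and -0.49 with cells thinned to 1000 UMIs. Of 14 interferon response genes 2 were higher and 1 lower, and of 12 residency genes 1 and 2. Of 15 genes tied to anergy 4 were higher and 1 was lower (median 0.60). Nrn1, which encodes neuritin, had 2.10 and the inhibitory receptor genes Lag3 and Tigit had 1.74 and 1.62, but without the cell that held most these were 1.40, 0.54 and 0.69. None of the 7 sort genes passed 2-fold. The 4 B cell markers with enough UMIs did not pass it either, and all B cell markers summed to 207 CPM in the 69 cells and 238 CPM in cells with none. Of 2 myeloid markers with enough UMIs 1 was lower, and the summed level was 51.0 and 96.5 CPM.

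By the rule for single genes, which took those seen in at least 10% of the higher group with a direction that held when each early response gene in turn was left out, the highest after Ccl4 was Tnfsf14, which encodes the cytokine LIGHT, at 2.26 (1.46 to 3.22, from 14 and 83 UMIs). Tagap, a GTPase-activating protein gene of T cell activation, followed at 2.14 (1.64 to 2.69, from 36 and 247 UMIs), or 1.60 without the cell that held most. Crem, a cAMP-responsive transcriptional modulator, had 2.13, Ctc1 2.07, Rilpl2 1.70 (1.11 to 2.32, from 27 and 252 UMIs), Etv6 1.67 and Gm43305 1.63. Braf and Nab2, which encodes a corepressor of EGR proteins, each had 1.62, and Cd274, the PD-L1 gene, had 1.58. The lowest were Mrps11 with no UMI in the 69 cells against 250, Trim11 at -2.61, Map11 at -2.59, Exoc5 at -2.58 and Trim34a at -2.28, all on 2 UMIs or fewer, and S100a4.

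With Myc left out of the count, the 21 cells with at least 2 of the other 6 genes (median 3767 UMIs) were compared with the 2660 cells with none (median 4624 UMIs), on fewer UMIs. Of 8835 genes, 1335 (15.1%) were higher by 2-fold or more and 1891 (21.4%) were lower. Of 33 other TCR-induced genes 25 were higher and 1 lower, with a median of 1.5 beside 0.10 for all genes. Cell cycle genes were higher in 9 of 13 (median 1.51), anergy-tied genes in 9 of 16 with 1 lower (median 1.09), and Myc targets in 11 of 34 with 1 lower (median 0.64). These counts rested in part on single cells. With the cell that held most of each gene left out, a step chosen after the data were seen, 14 of the 33 TCR-induced genes were higher and 4 lower (median 0.91). By the same step 5 of the 13 cell cycle genes were higher and 1 lower (median 0.59), and 5 of the 16 anergy-tied genes were higher and 1 lower (median 0.53). Of the Myc targets 5 of 34 were then higher and 3 lower. Among the cell cycle genes, Mki67, a proliferation marker gene, had 3.53, from 5 UMIs in 2 cells. It had 2.38 without the cell that held 3 of them. Mcm2, which encodes a subunit of the replicative helicase, had 1.79, from 9 UMIs in 3 cells, and -0.20 without the cell that held 7. Among the anergy-tied genes, Nrn1 had 4.18 and 3.49 without the cell that held most of it, while Ctla4, an inhibitory receptor gene, had 1.14 and -0.32. Cd69 had a log2 ratio of 1.55, with 22 of its 74 UMIs in 1 cell and 1.20 without that cell. B cell markers summed to 219 CPM in the 21 cells and 233 CPM in cells with none, and myeloid markers to 43.8 and 96.1 CPM.

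Each gene was also taken alone, with the following values. Status was read in thinned cells and levels from all UMIs. The share of all genes that were higher by 2-fold was greatest in the smallest group (14.8% at 17 cells) and least in the largest (0.0335% at 553 cells), so counts of genes do not rank the 7, and whether the 7 differ from each other was not tested. Nr4a1 was seen in 22 thinned cells: 24 of 34 TCR-induced genes were higher by 2-fold or more and 3 lower, against backgrounds of 12.8 and 20.8% of 8960 genes, with a median of 1.32. Tagap had a log2 ratio of 3.89 (3.42 to 4.44) and was seen, after thinning, in 59.1% of cells with Nr4a1 and 4.33% of cells without. Rel had 2.48, from 20 and 492 UMIs, and was seen in 40.9% and 14.6% of cells before thinning. Cd69 had 1.47 (1.14 to 1.80), at 782 and 281 CPM, with 22 of its 78 UMIs in 1 cell. Ccl4 had 4.90 in the same cells, with 89 of 109 UMIs in 1 cell, and the 7 UMIs of Lag3 and 6 of Nrn1 were each from 1 cell. B cell markers summed to 100 CPM in cells with Nr4a1 and 233 CPM in cells without.

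In cells with Nr4a3 (38), 9 of 34 TCR-induced genes were higher and 2 lower (backgrounds 5.03 and 15.1%), and Cd69 had 0.31 (-0.06 to 0.66). Nab2 had 2.15, on 10 UMIs, and was seen in 18.4% of thinned cells with Nr4a3 and 2.32% of cells without. Xcl1 had 1.65, with 29 of 59 UMIs from 1 cell, and all 7 UMIs of Pdcd1, the PD-1 gene, came from 1 cell.

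Egr1 cells (56) had 6 TCR-induced genes higher and 2 lower (backgrounds 4.41 and 9.94%), with Cd69 at 0.63 (0.35 to 0.90) and Bcl2a1b at 1.66 from 25 and 418 UMIs, in 18 cells. Izumo1r was higher in them: its log2 ratio was 1.90 (1.20 to 2.63), from 19 UMIs of which 8 lay in 1 cell, at 74.0 CPM in cells with Egr1 and 19.1 CPM in cells without. Nrn1 had 2.07 and Cd200 had 2.11 in these cells, on 11 and 9 UMIs.

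Irf4 cells (17) were the fewest, and 14.8% of all genes were higher and 27.6% lower by 2-fold or more. Of the TCR-induced genes 13 were higher and 7 lower, and Cd69 had 1.05 (0.58 to 1.48). Itgae had 2.10 (1.16 to 2.94), on 12 UMIs of which 6 lay in 1 cell.

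Nfkbid cells (116) had 3 TCR-induced genes higher and 1 lower (backgrounds 1.31 and 4.85%). Cd69 had 0.54 (0.33 to 0.74), Tagap 1.40 and Gadd45b 1.32, while Izumo1r had -0.77 and Itgae -0.31, with intervals that include 0.

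In Tnfrsf9 cells (46), Cd69 had 0.05 (-0.32 to 0.39). Of 16 anergy-tied genes 8 were higher and none lower (median 0.72). The same list had 7 higher and 3 lower in cells with Irf4 (median 0.86), 6 higher and none lower with Nr4a1 (median 0.68) and 6 higher and 1 lower with Egr1 (median 0.45). Of 13 cell cycle genes 5 were higher in Tnfrsf9 cells (median 0.98), and of the TCR-induced genes 12 were higher and 3 lower (backgrounds 6.52 and 10.3%). Stmn1, a gene of the cell cycle list, had 2.84, with 16 of its 33 UMIs in 1 cell. Whether that list's median in Tnfrsf9 cells held under other random draws was not tested. Pdcd1 had 4.12, from 16 and 42 UMIs, and Lag3 had 3.88, from 32 and 117 UMIs. After thinning Lag3 was seen in 19.6% of cells with Tnfrsf9 and 1.56% of cells without. Nrn1 had 3.39 and Wnt10a, a Wnt ligand gene, had 3.30, and Cd200, which encodes an inhibitory ligand, had 2.70. Tnf had 2.17 from 13 UMIs spread over 11 cells. Itgae had 1.19 (0.49 to 1.86), on 20 UMIs. Of 14 interferon response genes none was higher and 5 were lower.

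In Myc cells (553), the largest group, 3 of 8960 genes (0.0335%) were higher by 2-fold or more and 45 (0.502%) lower. Of 34 Myc targets none passed 2-fold, with a median of 0.15 beside -0.01 for all genes, and Slc7a5, an amino acid transporter gene, had 0.57 (0.15 to 1.03). Cd69 had 0.18 (0.07 to 0.29). With all clusters pooled, the anergy-tied genes ran the opposite way to the cells with Tnfrsf9, with none higher and 6 of 16 lower. Izumo1r had -1.32 (-2.11 to -0.81), at 8.51 CPM in cells with Myc and 22.8 CPM in cells without, Nrn1 had -1.69, Lag3 -1.37 and Pdcd1 -1.47. When cells inside and outside cluster 6 were read apart (below), the intervals of Nrn1, Lag3 and Pdcd1 included 0. Gzma had -2.50, from 14 and 388 UMIs, and Itgae -0.53 (-0.92 to -0.19). Over the 7 splits the B cell markers, apart from cells with Nr4a1, summed to 192 to 273 CPM with the gene and 231 to 237 CPM without, and myeloid markers to 50.1 to 109 CPM and 94.5 to 95.6 CPM.

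**Figure D4:**
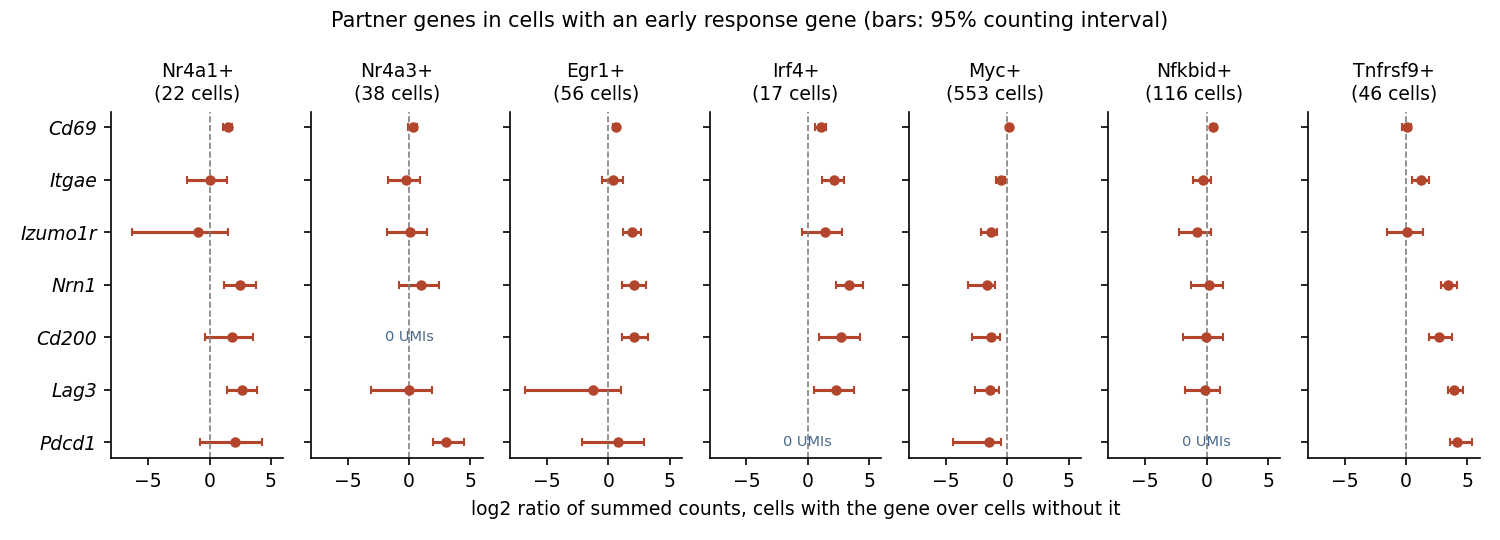
Log2 ratio of summed CPM between thinned cells with and without each early response gene, for Cd69, Itgae, Izumo1r, Nrn1, Cd200, Lag3 and Pdcd1, with exact 95% intervals of the counts. Cells of all clusters are pooled. Cd69 reaches 1.47 with Nr4a1, with 22 of its 78 UMIs in 1 cell, and 0.05 with Tnfrsf9. Lag3 and Pdcd1 reach 3.88 and 4.12 with Tnfrsf9 and lie at -1.37 and -1.47 with Myc.

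Clusters were built without the 7 genes, Cd69, Izumo1r, Itgae, the other TCR-induced and AP-1 genes and the receptor segments (128 genes), which gave 8 clusters that are called by number. Cluster 6 (431 cells, median 3162 UMIs), led by Nrn1, Ctla4, Wnt10a, Ptms, Lag3 and Cd200, had the most Tnfrsf9, at 35.2 CPM (26.5 to 45.8) against 2.15 to 9.10 CPM in the other 7 clusters, and the most Egr1, at 22.4 CPM (15.6 to 31.1) against 6.46 to 11.2 CPM. The 6 genes without Myc summed to 109 CPM (93.6 to 127) there, against 38.4 to 63.9 CPM elsewhere. After thinning, the interval of cluster 6 for the 6 genes overlapped with those of clusters 0, 1, 2, 4 and 7. For Tnfrsf9 the interval overlapped with those of clusters 0, 5 and 7, and for Egr1 with those of every other cluster. Any of the 6 genes was seen in 13.6% (10.2 to 17.6) of thinned cells of cluster 6, against 11.3% (6.16 to 18.6) in cluster 7, 10.8% (8.03 to 14.2) in cluster 2 and 6.06 to 10.1% in the others. Tnfrsf9 was seen in 4.80% (2.82 to 7.58) of them, against 2.61% (0.541 to 7.43) in cluster 7, the highest of the others, and Egr1 in 3.67% (1.97 to 6.20), against 0.870 to 2.59% in the others. Izumo1r was at 145 CPM in cluster 6 and 2.69 to 19.4 CPM elsewhere, whereas Cd69 was at 272 CPM, within the 173 to 375 CPM of the others.

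Irf4 was highest in clusters 6 and 7, at 12.8 and 11.3 CPM, and had no UMI in the 529 cells of cluster 0, where 3 counts would be 1.14 CPM. Clusters 6 and 7 were also the shallowest, and after thinning Irf4 was seen in 1.41% (0.460 to 3.27) of cluster 6, 1.74% (0.211 to 6.14) of cluster 7 and 1.11% (0.229 to 3.20) of cluster 4, which overlap. Myc was lowest in clusters 6 and 7, at 54.4 CPM (43.4 to 67.3) and 56.5 CPM, against 106 to 140 CPM in the other 6. After thinning Myc was seen in 7.91% (5.32 to 11.2) of cluster 6 and 12.2% (6.82 to 19.6) of cluster 7, against 17.4 to 22.6% in the others. Cluster 7 (173 cells, median 2520 UMIs), led by S100a4, Lgals3, Gzma, Gzmb and Itga1, had the most Itgae, at 447 CPM, and the least Cd69. All 7 genes summed to 107 CPM (82.4 to 136) there and to 203 CPM in cluster 2, which also had the most Cd69 and Myc. Nfkbid was between 10.5 CPM in cluster 5 and 28.4 CPM (20.3 to 38.6) in cluster 4. Cluster 4, led by the interferon response genes Isg15, Ifit1 and Ifit3, also had the most Nr4a3, at 11.4 CPM (6.49 to 18.4). These intervals overlapped with those of all other clusters, apart from that of Nfkbid in cluster 5. After thinning Nfkbid was seen in 2.95% (1.28 to 5.73) of cluster 4, against 2.27% in cluster 5 and 3.68 to 4.80% in the others. Nr4a1 was at 1.61 to 6.21 CPM with overlapping intervals in all 8 clusters. Of the 21 thinned cells with at least 2 of the 6 genes without Myc, 9 lay in cluster 6, as did 4 of the 9 cells with at least 4 of the 7. Cluster 6 held 354 of the 2929 thinned cells and 13.2% of all cells.

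**Figure D5:**
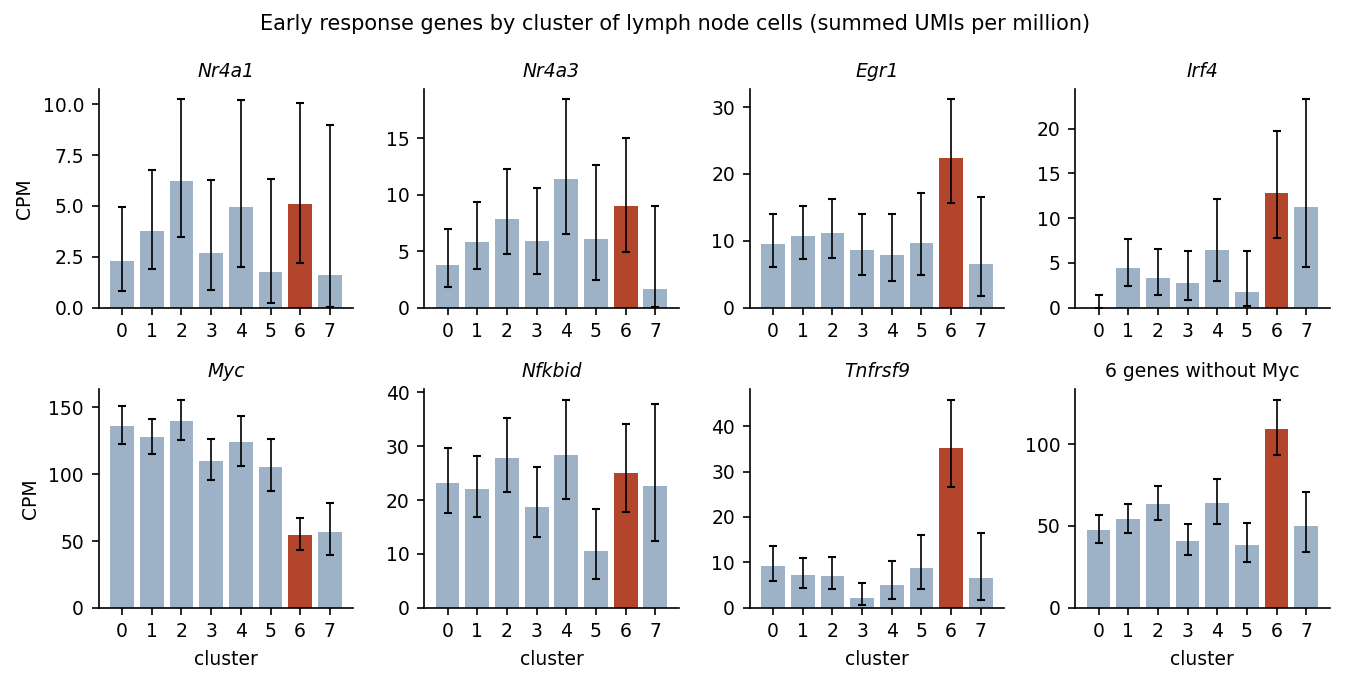
Level of each early response gene, and of the 6 without Myc summed, in the 8 clusters (CPM from summed UMIs, exact 95% intervals); each panel has its own axis from 0, and cluster 6 is red. Tnfrsf9 stands at 35.2 CPM in cluster 6 against at most 9.10 CPM elsewhere, and Myc at 54.4 and 56.5 CPM in clusters 6 and 7 against at least 106 CPM.

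Since cluster 6 carried both Tnfrsf9 and the anergy-tied genes, the partner genes were also read inside and outside it, a split made after the data were seen. Among thinned cells of cluster 6, the 17 with Tnfrsf9 against the 337 without had log2 ratios of 2.35 for Lag3 (27 UMIs in 11 cells), 1.88 for Nrn1 (23 UMIs in 5 cells), 3.07 for Pdcd1 (16 UMIs in 5 cells) and 1.27 for Cd200. Outside it, the 29 cells with Tnfrsf9 had no UMI of Nrn1, Cd200 or Pdcd1, and the 2546 cells without it held 21, 21 and 13. The intervals of these log2 ratios reach 4.05, 4.05 and 4.82, so no difference between inside and outside could be read. Lag3 had 3.25 (1.95 to 5.02) outside, from 5 UMIs of 1 cell. Izumo1r was lower with Tnfrsf9 inside cluster 6, at -1.33 (-2.99 to -0.10), from 5 UMIs in 3 of the 17 cells. With Egr1 it was higher inside cluster 6: the 13 cells with Egr1 against the 341 without had 1.25 for Izumo1r (0.47 to 1.95). That value came from 18 UMIs in 6 cells, and the 43 cells with Egr1 outside had 1 UMI of Izumo1r. The lower Izumo1r in cells with Myc was -0.07 (-0.93 to 0.69) inside cluster 6 and -0.93 (-2.40 to -0.07) outside. Nrn1, Lag3 and Pdcd1 with Myc had -0.41, -0.50 and -1.74 inside and -1.11, -0.58 and -0.24 outside. All of these intervals include 0, so a difference with Myc was not detectable on either side for these genes. Cd69 was higher on both sides with Egr1 (0.85 inside, 0.58 outside) and with Nfkbid (1.35 and 0.40). The Itgae value of cells with Irf4 outside cluster 6 was 2.67, from 10 UMIs in 3 of 12 cells.

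Receptor sequences gave a clone to 2135 of the cells. The 29 cells whose clone was also found in skin (median 2305 UMIs) had 5 UMIs of the 7 genes, or 71.5 CPM (23.2 to 167), against 173 CPM (165 to 181) in the 2106 cells of clones found in the lymph node alone (median 4556.5 UMIs). Myc had 1 UMI, or 14.3 CPM (0.362 to 79.7), in shared clones and 117 CPM in lymph node clones. The other 6 genes were at 57.2 CPM (15.6 to 146) and 56.0 CPM (51.3 to 60.9). With clones called by TRB alone, the 49 cells of shared clones had 90.1 CPM of the 7 genes (46.6 to 157), against 171 CPM in lymph node clones. Myc was then at 52.6 CPM (21.1 to 108, from 7 UMIs) and 114 CPM, and the other 6 genes at 37.5 CPM (12.2 to 87.6) and 56.7 CPM. Nr4a1, Nr4a3 and Tnfrsf9 had no UMI in the shared clones, where 3 counts would be 42.9 CPM, above their levels of 3.34 to 9.28 CPM in lymph node clones, so no difference was detectable at this depth. The 104 cells of clones with at least 2 cells (median 2581 UMIs) had 205 CPM of the 7 genes (156 to 264), against 171 CPM (163 to 180) in the 2031 cells of clones seen once (median 4596 UMIs). Without Myc these were 90.2 CPM (59.0 to 132) and 54.9 CPM (50.3 to 59.9). By TRB alone the difference was not seen: 255 cells of clones with at least 2 cells had 171 CPM of the 7 genes, against 170 CPM in 2332 cells of clones seen once, and 61.2 CPM (45.1 to 81.1) against 56.2 CPM (51.8 to 60.9) without Myc.

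The genes whose detection was most like the number of the 7 genes in a cell, over 2929 thinned cells of 1 library and 3964 genes, were Rilpl2 (r = 0.113), Cd69 (0.0717), Rab10os (0.0685), Hspa5 (0.0669), Utp20 (0.0661), Trim28 (0.0654), Hdlbp (0.0653), Gnl3 (0.0642), Nudt19 (0.0632) and Dync1li1 (0.0627). All are weak, and the 99th percentile over all of these genes was 0.0497. Without Myc in the number the first were Bcl2a1b (0.104), Rilpl2 (0.102) and Cd69 (0.0848).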

How the data were processed

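The authors deposited raw UMI counts of lymph node cells, lanes pooled, and receptor contigs of both tissues. Table names gave the tissue, and skin RNA was not analysed here. Bowtie, RSEM and mm10 are named in the submitters' processing notes, and versions are not given in the sources used here; how reads were placed along genes is not stated either, so levels were not compared between genes per length. Lymph node cells were freed mechanically and skin cells with enzymes, per the labels' protocols.

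The 7 genes and all gene lists were chosen with earlier results of these data known. Cells were thinned to 2000 UMIs with numpy 2.4.6 (seed 20240), and a gene was called present with 1 UMI or more. Expected numbers are products of the genes' shares, at the thinned depth or within 10 depth groups. CPM are summed UMIs per 1000000; ratios have a prior of 1 CPM, and a gene needed 50 UMIs over both groups. Shares have Clopper-Pearson intervals, counts Poisson intervals and ratios conditional binomial intervals (scipy 1.17.1). Named genes were the 7, Cd69, Izumo1r and Itgae, the 12 highest and 6 lowest log2 ratios by the stated rule, leaving out receptor, mitochondrial and ribosomal genes, the 10 most correlated genes, and list members. Clones required identical TRB and TRA CDR3 nucleotides, with 1 TRB and 1 or 2 TRA sequences. Clusters came from scanpy 1.11.5 (igraph 0.11.9; 2000 variable genes, 30 components, 15 neighbours, resolution 1). No doublet caller was run; barcodes with 2 or more TRB sequences were left out as an alternative. The log2 ratio and the expected numbers were checked on simulated data, and the intervals were not.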

Additional observations from a re-analysis of the deposited data

How the results depend on the processing

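No paired analysis was possible because all values come from 1 library whose lanes share cells, and for the same reason no replicate could be left out. Of 174 values for the main comparisons under other settings, 123 held and 51 moved, and of 593 values for lists and single genes 440 held, 144 moved and 9 values of the cell cycle list, Ctc1, S100a4, Exoc5 and Map11 changed sign. List medians whose interval includes 0 are not among these 9, and some changed sign more often: out of 18 settings the residency list kept its sign in 6, the sort genes in 10, the TCR signalling proteins in 12, the interferon response list in 15 and the AP-1 list in 16. The effector list stayed below 0 in all 18, between -0.81 and -0.02. The share of cells with any of the 7 genes was 26.2%, and it was 14.2, 36.1 and 44.4% with 1000 UMIs, 3000 UMIs and no thinning, and 4.34% when 2 UMIs were required. The ratio of observed to expected cells with at least 2 of the genes was 1.11 and became 1.68 with 1000 UMIs and 1.93 without Myc. That for at least 3 was 3.61 and became 10.3 with 1000 UMIs, 19.3 without Myc and 7.39 without Nfkbid. The ratio over all thinned pairs was 1.46 and became 2.0 with 1000 UMIs, 2.84 without Myc and 1.12 without the 9 cells with at least 4 of the genes. The level of the 7 genes summed in the highest cluster over the lowest was 1.91, and 1.40 at a resolution of 0.5.

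For the 69 cells with at least 2 of the genes, Cd69 stayed above 0 in every setting. With at least 1 gene required, Cd69 had 0.26, genes higher and lower numbered 3 and 7, the TCR-induced list had a median of 0.21 and the cell cycle list -0.0040. With at least 3 required, Cd69 had 2.42, Izumo1r 0.41, the numbers were 1666 and 3713, the TCR-induced list 1.38, the cell cycle list -0.58 and Ctc1 -2.39. With 1000 UMIs, Cd69 had 1.27, Izumo1r 0.30, Itgae 1.04, the numbers were 729 and 1321, the TCR-induced list 1.08, the cell cycle list -0.49 and S100a4 0.50. With 3000 UMIs, Cd69 had 0.39, Izumo1r 0.50, the numbers were 91 and 226, and Exoc5 had 0.21. Without thinning, Cd69 had 0.46, the numbers were 16 and 58, and Exoc5 had 0.025. With a prior of 10 CPM the numbers were 37 and 58, and with a minimum of 200 UMIs 43 and 108. Without the 2279 cells with a B cell or myeloid marker UMI, Cd69 had 1.37, Itgae -2.15 and the TCR-induced list 1.09. Without Myc, Cd69 had 1.55, Izumo1r 0.18, the numbers were 1335 and 1891 and the TCR-induced list 1.5. Without Nfkbid the numbers were 590 and 1084 and the TCR-induced list 0.81. With another random draw, an alternative chosen after the data were seen, Izumo1r had 0.65, the cell cycle list -0.11 and Map11 0.63. The causes of these changes were not tested.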
